A study of Mus musculus with 20 samples.

Results

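Ribosomal protein genes encode the protein components of the cytoplasmic ribosome, and their accessible chromatin was followed across 10 peak lists from mouse embryonic stem cells that differed in the CTCF protein they carried. The members were taken by symbol: a protein-coding gene on chromosomes 1 to 19 of the RefSeq gene table whose symbol is Rpl, Rps or Rplp followed by a number and at most an a or x. This gave 71 of 20665 protein-coding genes, namely 40 genes of the large subunit (Rpl), 28 of the small subunit (Rps) and 3 of the stalk (Rplp0, Rplp1 and Rplp2). On any chromosome 75 genes match the symbol. A member's window was the gene with 2 kb on each side.

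The cells were feeder-free E14Tg2a mouse embryonic stem cells, strain 129/Ola, grown with leukemia inhibitory factor, CHIR99021 and PD0325901. They were of a degron line in which the auxin indole-3-acetic acid (IAA) triggers removal of the endogenous CTCF. Each of 10 lines carried a stable doxycycline-inducible Ctcf transgene: wild-type (WT) or one of R339Q, R342C, S354F, K365T, R377C, R377H, Q418R, R448Q and H455R. All 20 samples, 2 replicates per genotype, received 500 µM IAA and 1 µg/ml doxycycline, and the protocol gives 2 days for these treatments. Accessible DNA was mapped by Omni-ATAC, in which a transposase cuts open chromatin, from 50000 cells per reaction and with about 50 M paired-end reads of 150 bp planned per sample. The comparison asks how accessible chromatin differs when the only CTCF is a mutant. Each genotype is 1 line, so differences between genotypes and between lines cannot be told apart. CTCF binds DNA through zinc fingers and marks, together with cohesin, the anchors of chromatin loops.

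Both replicates of a genotype were joined by the authors in 1 peak list. No value has a replicate error, no test between genotypes was possible, and the binomial intervals given cover counting error only. The lists held 121032 (R339Q) to 171719 peaks (WT). Background coverage, an estimate of relative depth read from the steps of the deposited values, ran from 3.49 in K365T to 5.96 in WT. The 2 library codes in the peak names were consecutive in 8 lists and apart in WT and K365T. Stem cell markers (Pou5f1, Nanog, Sox2, Klf4, Esrrb, Tfcp2l1, Zfp42) had a window peak in all 10 lists for 7 of 7 genes, and fibroblast markers for 4 of 6. Over all protein-coding genes the share was 77%, so these counts do not tell cell types apart.

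Ribosomal proteins are made in near-equal amounts in every growing cell, and the genes are scattered over the chromosomes, compact and strongly transcribed. Their messenger RNAs typically begin with a run of pyrimidines, through which growth signalling controls translation, and many of their introns hold small nucleolar RNAs that guide modification of ribosomal RNA. The members were short, with a median gene length of 3175 bp (982 to 11774 bp) against 17490 bp over all protein-coding genes. Of the 71 members 26 held at least 1 annotated snoRNA gene, 53 in all, where 1.72% of protein-coding genes held one. Rpl4 held 5, and Rpl7a and Rpl13a held 4 each.

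Promoter sequences from the RefSeq table of GRCm38.p6, covering 250 bases before to 50 after the start, were matched for 51 members. Among those not matched were Rpl3, Rpl7, Rpl8, Rps14, Rps20, Rps27a, Rps29 and the stalk gene Rplp1. For 6 members the sequence is printed from 100 bases before to 20 after the start, 5′ to 3′ on the gene's strand, chosen after their peaks were seen: the most accessible start (Rpl15), the stalk gene Rplp0, a narrow start peak (Rps26), a start whose rank varied among lists (Rps12), a weak start (Rpl10a), and a start without a peak (Rps25). Capitals mark a match to the ETS motif CCGGAAG and the pyrimidine run at the start, where these were found.
Rpl15, chr14:18270967-18271086, minus strand: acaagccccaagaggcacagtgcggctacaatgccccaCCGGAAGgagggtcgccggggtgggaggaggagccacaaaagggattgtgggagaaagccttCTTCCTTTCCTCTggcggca
Rplp0, chr5:115559367-115559486, plus strand: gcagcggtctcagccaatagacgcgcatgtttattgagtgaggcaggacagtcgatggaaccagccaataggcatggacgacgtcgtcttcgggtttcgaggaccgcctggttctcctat
Rps26, chr10:128626487-128626606, minus strand: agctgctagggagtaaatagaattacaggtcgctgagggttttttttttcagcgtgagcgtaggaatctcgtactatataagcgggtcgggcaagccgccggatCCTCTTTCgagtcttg
Rps12, chr10:23787190-23787309, minus strand: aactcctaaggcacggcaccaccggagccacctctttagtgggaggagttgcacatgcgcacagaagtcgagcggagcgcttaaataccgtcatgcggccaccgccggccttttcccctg
Rpl10a, chr17:28328371-28328490, plus strand: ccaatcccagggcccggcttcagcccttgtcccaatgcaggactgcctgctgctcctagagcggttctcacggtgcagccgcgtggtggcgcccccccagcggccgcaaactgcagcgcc
Rps25, chr9:44407614-44407733, plus strand: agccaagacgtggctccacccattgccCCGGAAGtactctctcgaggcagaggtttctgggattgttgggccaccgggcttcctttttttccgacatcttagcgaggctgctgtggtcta

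Motifs were searched on both strands in the 300 bases as fixed strings, and a match is a description of letters, not of a bound site. An oligopyrimidine start, counted on the gene's strand as a C within 5 bases of the start followed by at least 4 pyrimidines, stood in 26 of 51 member promoters (51.0%, against 21.9% of all 16457 protein-coding genes with an entry). The ETS motif CCGGAAG, recognised by a large family of activators, was in 21 members (41.2% against 13.3%). The YY1 motif AAGATGG was in 9 (17.6% against 7.26%) and the SP/KLF motif GGGCGG in 30 (58.8% against 50.3%). The NRF1 motif was matched in 4 members (7.84% against 7.39%), and the TATA box, as TATAAA, also in 4 (7.84% against 15%). A degenerate CTCF core was in 7 (13.7% against 11.6%). Median GC content was 57.0% in members and 56.7% over all promoters, whereas the ratio of observed to expected CpG was 0.909 and 0.582. The strength of a peak is given as its percentile, its rank by the deposited value within the same list, from 0 for the weakest to 100 for the strongest peak. Among the 50 members with a start peak in some list, the 26 with an oligopyrimidine start had a median percentile of 71.9 and the 24 without 79.4. The 26 include Rpl18, Rpl19, Rpl38 and Rps2, whose start in the promoter table lies more than 250 bp inside the annotated gene. Rpl19, Rpl18 and Rpl38 had the lowest medians of all members. The 20 with an ETS match had 76.5 and the 30 without 72.9.

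Every member's window held accessible chromatin in every genotype. All 71 had at least 1 peak in the window in all 10 lists, where 77% of protein-coding genes did, and 70 had one within 1 kb of an annotated gene end in all 10 lists, where 66.4% did. The exception was Rpl17, a large subunit gene on chromosome 18, which had no such peak in R377H and R448Q. Such presence was not particular to the members. A window peak in all 10 lists was found for 78 of 78 mitochondrial ribosomal proteins, 46 of 46 ribosome biogenesis genes and 22 of 23 translation factors. A peak near a gene end in all lists was found for 77, 45 and 21 of them. Within the gene alone, without flanks, 68 members (WT, K365T) to 70 had a peak. Members held on average 2.85 peaks per window in WT and 2.44 (R339Q) to 2.82 (K365T) in the mutants, while all protein-coding genes held 5.56 in WT and 3.89 to 5.12 in the mutants. Rpl5, which with Rpl11 carries the 5S ribosomal RNA into the ribosome, had the most in WT, 7 peaks. At the other end, Rps27 and Rpl37 had exactly 1 window peak in each of the 10 lists.

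At the start itself, defined as a peak overlapping the 300-base promoter window, 48 of 51 members had a peak in all 10 lists, where 61.5% of genes with a promoter entry did. By list the count was 48 in WT and Q418R, 49 in R342C, S354F, K365T and R377C, and 50 in R339Q, R377H, R448Q and H455R. The share over all genes was 66.1% in WT, 64.2% in R339Q, 65.4% in R342C, 65.6% in S354F, 64.9% in K365T, 66% in R377C, 65.4% in R377H, 64.1% in Q418R, 66.5% in R448Q and 66% in H455R. Small subunit genes had a start peak in all lists for 19 of 20, large subunit genes for 27 of 29 and stalk genes for 2 of 2. Mitochondrial ribosomal proteins, a separate set that serves the organelle's own ribosome, had one for 64 of 69.

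The 3 members lacking a start peak in some list were Rps25, Rpl19 and Rpl38. Rps25 is a small subunit protein known for its part in translation from internal ribosome entry sites, and its start on chromosome 9 at 44407714, whose sequence is printed above, had no peak in any list. Its window held 2 regions present in all 10 lists, both past the other end of the gene: 44410623 to 44411143, and 44411814 to 44413540. Rpl38, a large subunit gene studied for its role in vertebral patterning, had a start peak in the 8 lists other than WT and Q418R, within chromosome 11 from 114668361 to 114669119. These peaks were weak: their percentile was 17.1 in R339Q, 3.50 in R342C, 7.86 in S354F, 11.2 in K365T, 4.15 in R377C, 19.6 in R377H, 28.4 in R448Q and 8.05 in H455R. Rpl19 had a start peak only in R339Q, R377H, R448Q and H455R, each at or under the 8.29th percentile. For Rpl19 the promoter table places the start 4707 bp inside the gene model, and the outer end of that model had a peak in every list (region 98021655 to 98023502). The same table places the start of Rpl18, Rps2 and Rpl38 also more than 250 bp inside the model, by 2604, 1942 and 762 bp. Just before the outer end of the Rpl38 model, at 114667818, lay a region found in WT, S354F, R377H and H455R (114667349 to 114667595). Its WT peak stood at the 26.4th percentile. Further upstream, a region from 114665506 to 114666068 was in all 10 lists. The promoter windows of Rpl19, Rpl18, Rps2 and Rpl38 each held an oligopyrimidine start and the SP/KLF motif. Which end of the gene is the start in use in these cells was not tested. For the other 47 members start and model end lay within 250 bp of each other, and of these 46 had a start peak in every list, all but Rps25.

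Start peaks of ribosomal protein genes ranked lower within their list than those of protein-coding genes at large, in all 10 lists. The median percentile of the members' start peak was 69.6 in WT, 77.1 in R339Q, 74.5 in R342C, 75.3 in S354F, 71.6 in K365T, 76.4 in R377C, 77.7 in R377H, 66.0 in Q418R, 76.9 in R448Q and 77.9 in H455R. Over all genes with a start peak the median was between 84.4 (Q418R) and 87.7 (R448Q). In every list the members' median lay below that of all genes, by the least in R339Q and by the most in Q418R. In WT 41 of 48 members had a value below the median of all start peaks, and over the lists 76.0% to 87.8% did. WT and Q418R had the lowest member medians. Both also had fewer members with a start peak than the other lists, as neither had one at Rpl38 or Rpl19. Start peaks of these genes in other lists were weak, so their absence does not lower the 2 medians.

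The start peaks of members were also narrower. The median width of the members' start peak was 576 bp in WT, 648.5 in R339Q, 586 in R342C, 658 in S354F, 582 in K365T, 677 in R377C, 657.5 in R377H, 557.5 in Q418R, 707.5 in R448Q and 627.5 in H455R. All genes had medians of 895 bp (Q418R) to 1022 bp (R448Q), with 957 bp in WT. In WT 45 of 48 members were narrower than the median over all genes. Other genes of the translation machinery had higher values. In WT, mitochondrial ribosomal proteins had a median percentile of 91.3 and a width of 848 bp, ribosome biogenesis genes 91.8 and 863 bp, and translation factors 87.3 and 962 bp. Over the 10 lists these 3 lists of genes stayed between 82.7 and 93.9 in percentile and between 788.5 and 1142 bp in width. The difference between the lists was not tested. Small subunit starts had a WT median percentile of 63.1 and width of 592 bp, large subunit starts 68.2 and 529 bp, and the 2 stalk starts 84.8 and 682 bp.

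**Figure D1:**
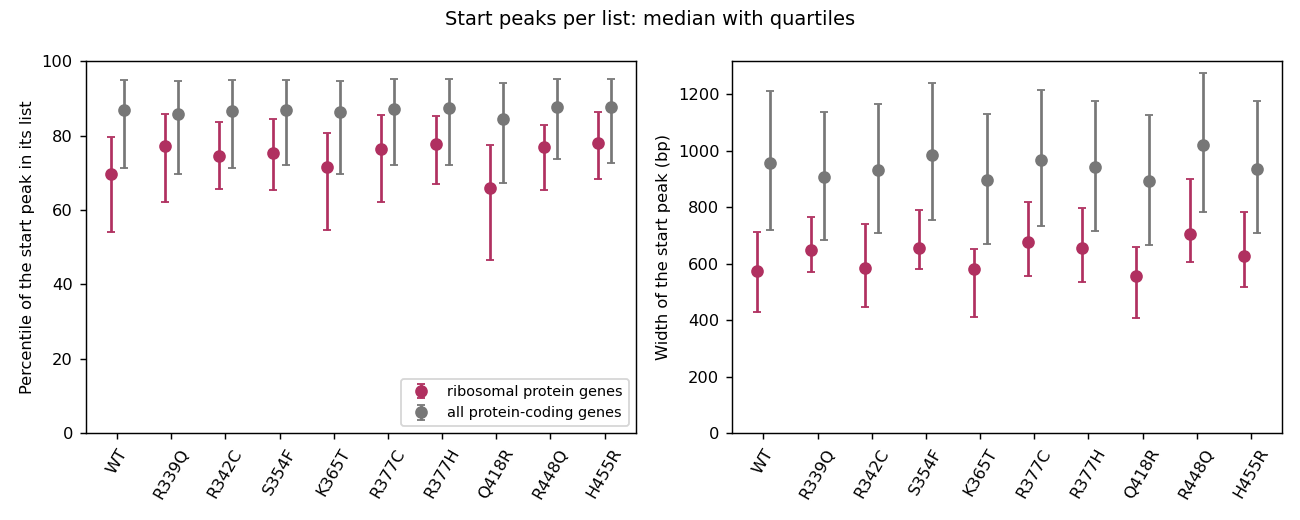
Start peaks in each of the 10 peak lists: percentile of the deposited value within the list (left) and width in bp (right), as medians (points) with quartiles (bars) over ribosomal protein genes and over all protein-coding genes with a start peak. In each list the members' median lies lower than that of all genes on both axes, for example 69.6 against 86.8 and 576 against 957 bp in WT.

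When start peaks were ranked only among the 10116 genes that had one in all 10 lists, so that weak peaks elsewhere had no influence, the 48 members' median percentile was 18.6 in WT, 32.2 in R339Q, 25.3 in R342C, 24.6 in S354F, 23.7 in K365T, 25.9 in R377C, 29.0 in R377H, 21.1 in Q418R, 24.1 in R448Q and 27.4 in H455R, where 50.0 is the middle by construction. WT was the lowest of the 10 lists on this scale and R339Q the highest. When each list was limited to as many of its strongest peaks as the shortest list holds, WT was again lowest at 59.4, and Q418R next at 64.0. The WT list has the largest number of peaks and the highest background coverage, R339Q the smallest number of peaks. Whether depth or list size has a part in the WT value was not tested.

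Members differed widely from each other. The most accessible start was that of Rpl15, a large subunit gene on chromosome 14 (18267823 to 18270986), whose start peak stood, in percentile, at 98.2 in WT, 99.8 in R339Q, 99.1 in R342C, 99.5 in S354F, 98.5 in K365T, 99.2 in R377C, 99.5 in R377H, 98.7 in Q418R, 98.8 in R448Q and 99.6 in H455R. Rps13, a small subunit gene on chromosome 7 (116331507 to 116334190), had a start peak at 94.97 in WT, 98.3 in R339Q, 97.2 in R342C, 97.6 in S354F, 96.2 in K365T, 98.0 in R377C, 97.5 in R377H, 95.1 in Q418R, 98.0 in R448Q and 97.5 in H455R. Together with Rpl34 (median 96.6), Rplp0 (96.3) and Rpl37 (96.1) these were the 5 highest by median. The 5 lowest by median were Rpl19 (3.69, over its 4 lists), Rpl18 (4.86), Rpl38 (9.63, over its 8 lists), Rpl10a (15.6) and Rps18 (18.7). Rps18 lies at the small subunit head, and its start peak on chromosome 17 stood at 6.46 in WT, 18.4 in R339Q, 7.11 in R342C, 19.1 in S354F, 10.9 in K365T, 21.9 in R377C, 23.5 in R377H, 4.21 in Q418R, 35.6 in R448Q and 37.6 in H455R. Rps18 and Rpl15 were picked by this same value, so the distance between their ranges follows from the choice. Rpl18, whose named start lies inside the gene model, had a stronger peak elsewhere in its window in every list, at 81.2 (Q418R) to 87.9 (R339Q). Over the 51 members with a promoter entry, the strongest window peak was the start peak for 35 (WT, Q418R) to 41 (R448Q).

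**Figure D2:**
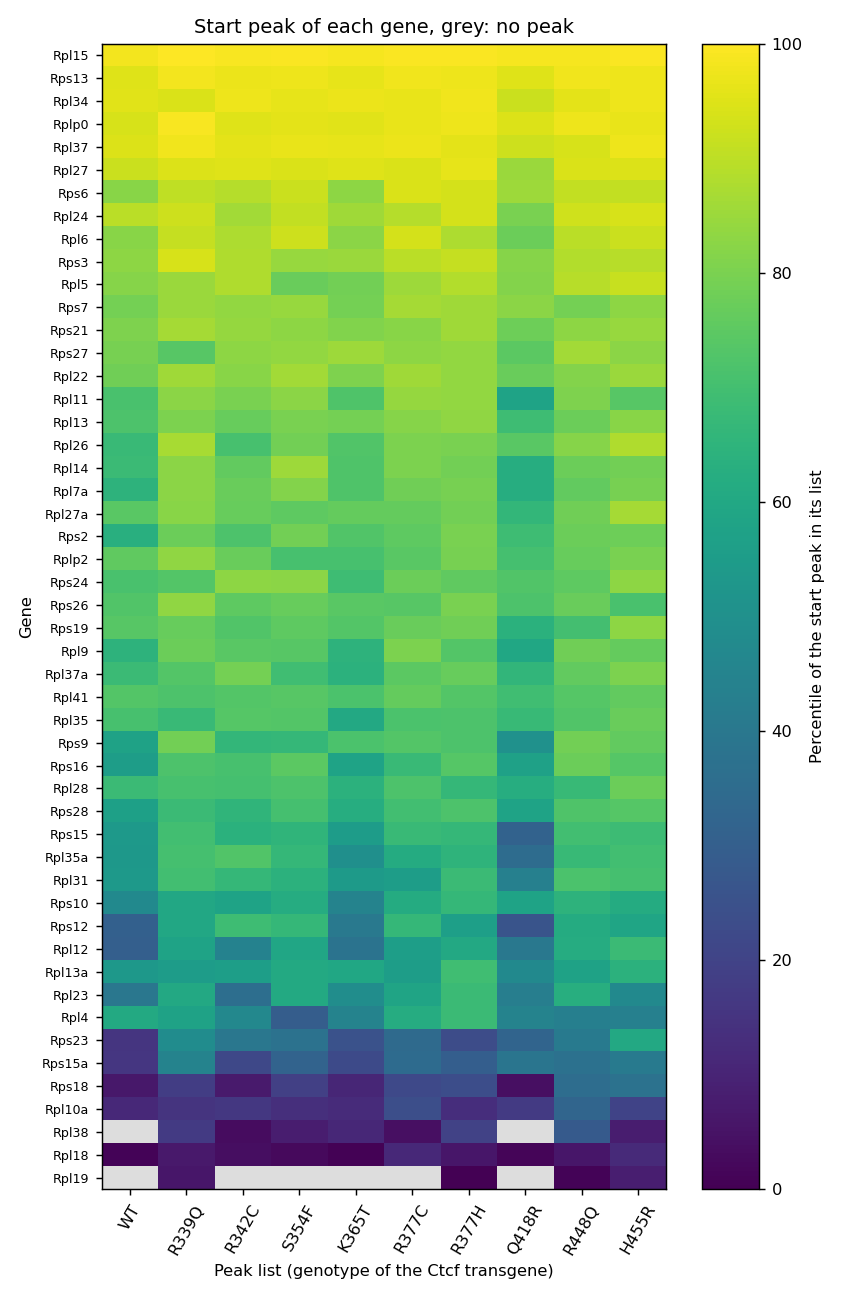
Percentile of the start peak (colour, 0 to 100) for the 50 ribosomal protein genes with a start peak in at least 1 list (rows, ordered by median) in the 10 peak lists (columns), with grey where no start peak was found. Rpl15 and Rps13 are at the high end in every list, and Rpl38, Rpl18 and Rpl19 at the low end.

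The acidic stalk recruits translation factors to the ribosome, Rplp0 being its base and Rplp1 and Rplp2 the proteins bound to it. The start peak of Rplp0 on chromosome 5 (gene 115559467 to 115563729) stood at 94.1 in WT, 98.9 in R339Q, 95.2 in R342C, 95.9 in S354F, 95.5 in K365T, 96.8 in R377C, 97.4 in R377H, 94.7 in Q418R, 97.6 in R448Q and 96.7 in H455R. Rplp2, on chromosome 7, was lower, at 75.4 in WT, 83.5 in R339Q, 77.1 in R342C, 71.0 in S354F, 71.1 in K365T, 74.4 in R377C, 79.5 in R377H, 70.6 in Q418R, 76.7 in R448Q and 79.8 in H455R. In every list Rplp0 was above Rplp2. Rplp1, for which only the window can be given, had its strongest window peak at 59.1 in WT, 72.7 in R339Q, 67.7 in R342C, 76.8 in S354F, 65.7 in K365T, 73.5 in R377C, 66.4 in R377H, 62.3 in Q418R, 78.4 in R448Q and 69.4 in H455R. Rplp1 was lowest in WT and highest in R448Q.

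Widest among start peaks, by median over lists, were Rpl22 (1462 bp), Rps21 (1380 bp), Rpl5 (1060 bp), Rps13 (887 bp) and Rps19 (884.5 bp). Narrowest were Rpl19 (200 bp), Rps18 (325 bp), Rps26 (338 bp), Rpl18 (369 bp) and Rpl4 (397.5 bp). Rps21 varied little, at 1374 bp in WT, 1397 in R339Q, 1368 in R342C, 1419 in S354F, 1365 in K365T, 1415 in R377C, 1424 in R377H, 1385 in Q418R, 1328 in R448Q and 1352 in H455R. Rps26, a small subunit protein at the messenger RNA exit, showed 2 separate levels, at 333 bp in WT, 640 in R339Q, 623 in R342C, 631 in S354F, 330 in K365T, 639 in R377C, 341 in R377H, 328 in Q418R, 335 in R448Q and 333 in H455R. Its peak was 623 to 640 bp wide in R339Q, R342C, S354F and R377C and 328 to 341 bp in the other 6 lists, with a percentile of 71.5 to 83.3 throughout. In WT this peak lay at 128626669 to 128627001, upstream of the start at 128626506. R448Q had another, separate peak of 200 bp over the start (128626348 to 128626547), which the width of the strongest peak leaves out. The 2 levels can thus include differences in how the peak was split.

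Start peaks of members were wider in several mutants than in WT, more often than those of other genes. A start peak was counted as wider when at least 1.25 times as wide as in WT, among the 48 members with a start peak in WT and in the mutant. This held for 22 members in R339Q (45.8%, binomial 95% interval 31.4 to 60.8), 8 in R342C (16.7%, 7.48 to 30.2), 20 in S354F (41.7%, 27.6 to 56.8), 8 in K365T (16.7%, 7.48 to 30.2) and 21 in R377C (43.8%, 29.5 to 58.8). It held for 16 in R377H (33.3%, 20.4 to 48.4), 5 in Q418R (10.4%, 3.47 to 22.7), 23 in R448Q (47.9%, 33.3 to 62.8) and 13 in H455R (27.1%, 15.3 to 41.9). Over all protein-coding genes the share was 5.99% in R339Q, 7.32% in R342C, 11.9% in S354F, 4.95% in K365T, 10.2% in R377C, 7.82% in R377H, 4.3% in Q418R, 15.7% in R448Q and 7.17% in H455R. The members' share was above that of all genes in all 9 mutants. The interval included the share of all genes in Q418R and came close to it in R342C. These intervals run over genes of 1 list per mutant and are no test of a mutant against WT. The share of all genes is also not matched for WT width. All 9 comparisons share the WT list, which has the highest background coverage and library codes that are not consecutive, and the part of these in the result was not tested.

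Genes with a narrow start peak in WT were wider in the mutants more often in general, so the counts were also set against other genes of equal WT start peak width, in 20 bins. At equal width 6.95 members would be wider in R339Q, 8.501 in R342C, 11.7 in S354F, 6.07 in K365T, 10.2 in R377C, 8.92 in R377H, 5.30 in Q418R, 15.0 in R448Q and 7.63 in H455R. The observed counts were 22, 8, 20, 8, 21, 16, 5, 23 and 13 in the same order. In R342C, K365T and Q418R the count was thus close to that of equally narrow starts, and in the other 6 mutants it was above it, most in R339Q. Among the 24 members with a WT width from 430.25 to 713.75 bp, their middle quartiles, 9 were wider in R339Q (37.5% against 13.7% of other genes in that range), 7 in S354F (29.2% against 24.2%), 9 in R377C (37.5% against 20.9%), 6 in R377H (25.0% against 17.2%) and 10 in R448Q (41.7% against 31.9%). In K365T 3 were wider (12.5% against 11.4%). In H455R the share turned below that of other genes (3 members, 12.5% against 14.4%), and it was below in R342C (2, 8.33% against 15.7%) and Q418R (1, 4.17% against 10.1%) as well. The median ratio of mutant to WT width was 1.14 in R339Q, 1.02 in R342C, 1.15 in S354F, 0.996 in K365T, 1.15 in R377C, 1.11 in R377H, 0.981 in Q418R, 1.23 in R448Q and 1.05 in H455R. At the limit of 1.5 times, the count of wider members was 9 in R339Q, 5 in R342C, 9 in S354F, 2 in K365T and 10 in R377C. It was 8 in R377H, 2 in Q418R, 13 in R448Q and 9 in H455R. No share of other genes is given at this limit, so these counts cannot be compared with them.

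Narrower start peaks were fewer than wider ones in 7 mutants, as many in K365T and more in Q418R. A start peak at most 0.8 times as wide as in WT was found for 5 members in R339Q (17.2% of all genes), 4 in R342C (12.1%), 4 in S354F (6.91%), 8 in K365T (17%), 3 in R377C (7.59%), 2 in R377H (11.1%), 9 in Q418R (18.6%), 2 in R448Q (5.56%) and 3 in H455R (10.5%), with the share of all genes in brackets. The members' share, 4.17% to 18.8%, was slightly above that of all genes in S354F and Q418R and below it in the other 7.

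**Figure D3:**
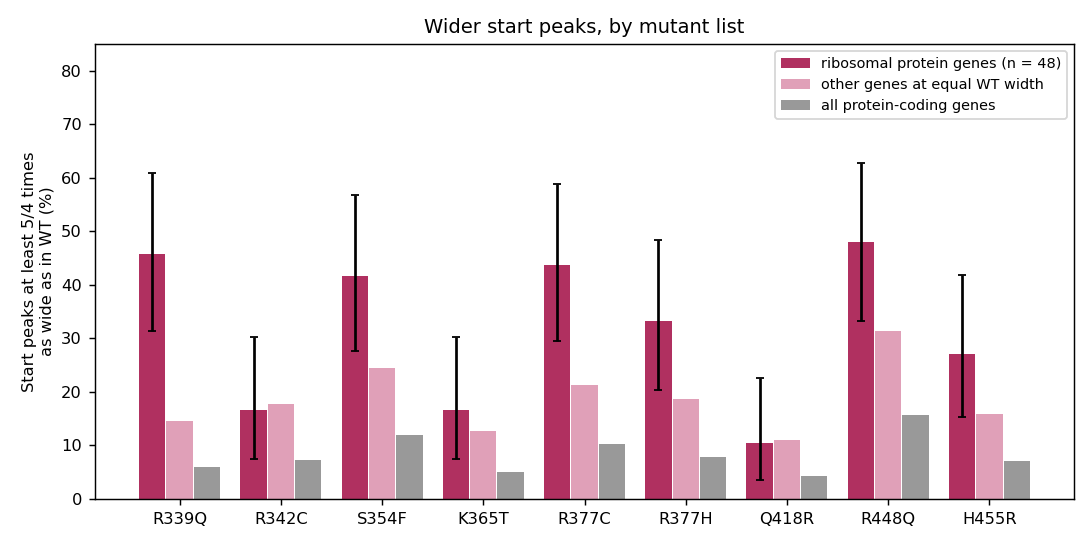
Share of start peaks at least 1.25 times as wide as in WT in each mutant list (%), for the 48 ribosomal protein genes (with binomial 95% intervals), for other genes at equal WT start peak width, and for all protein-coding genes. Members reach 45.8% in R339Q and 47.9% in R448Q, and 10.4% in Q418R.

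The edges of the peaks differed mainly on the gene side of the start. Among members with 1 promoter entry (41 or 42 per list), the median start peak in WT reached 380 bp upstream and 160 bp into the gene, while over all such genes it reached 415 bp upstream and 483 bp into the gene. In R448Q the members' peak reached 386 bp upstream and 333.5 bp inward, while the inward reach was 325 bp in R377C, 311.5 bp in S354F, 299.5 bp in R339Q and 282.5 bp in R377H. H455R had 354.5 and 244 bp, K365T 332.5 and 192.5 bp, R342C 335 and 186.5 bp, and Q418R 318 and 151 bp. The inward reach thus ranged from 151 to 333.5 bp, whereas the upstream reach stayed between 318 and 404 bp. For all genes the inward reach was 433 bp (Q418R) to 542 bp (R448Q). These edges are those of the strongest peak at the start, so they can include differences in how a peak was split. In WT 3 of 41 member peaks ended before the start, and 0 (R339Q) to 2 (K365T, R377H) did in the mutants.

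**Figure D4:**
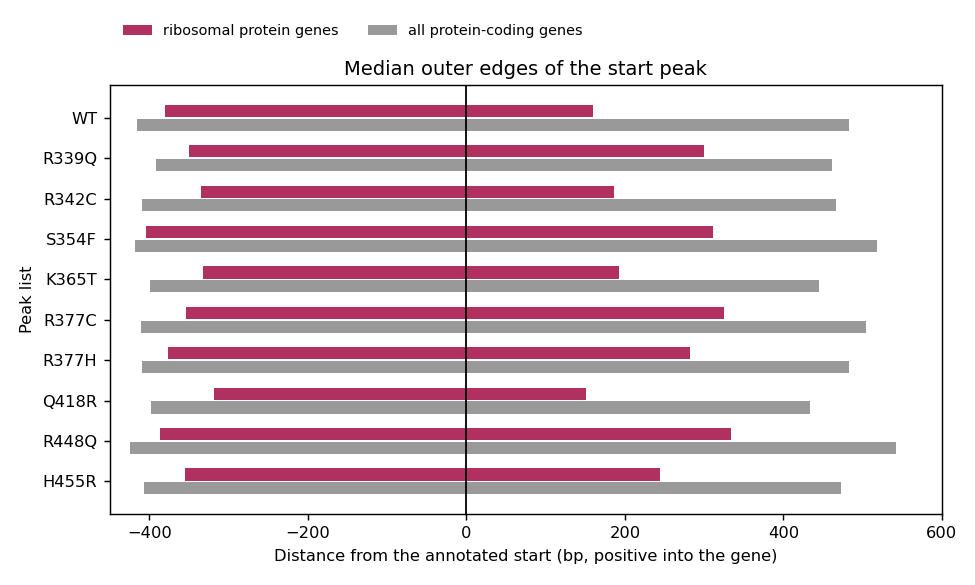
Median outer edges of the start peak around the annotated start (0 bp, positive into the gene) in each list, for ribosomal protein genes and for all protein-coding genes with 1 promoter entry. The members' bars end 151 to 333.5 bp into the gene, those of all genes 433 to 542 bp. Edges are those of the strongest peak and can include differences in how a peak was split.

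Of the 48 members 15 were wider in no mutant, and 6 were wider in 8 of the 9. These were Rpl11 and Rpl26, both of the large subunit and known for a part in the p53 response to ribosomal stress, Rps23 at the decoding centre, Rps24, Rpl10a, and Rps18. The start peak of Rps24 was 417 bp wide in WT, 638 in R339Q, 434 in R342C, 766 in S354F, 524 in K365T, 808 in R377C, 761 in R377H, 535 in Q418R, 941 in R448Q and 732 in H455R. WT was the narrowest of the 10 lists and R448Q the widest. Rps23 had 200 bp in WT, 618 in R339Q, 608 in R342C, 614 in S354F, 229 in K365T, 608 in R377C, 257 in R377H, 556 in Q418R, 619 in R448Q and 610 in H455R. For this gene 2 WT peaks lay at the start, the stronger of which is 200 bp wide, and mutant lists with 1 broad peak there were 556 to 619 bp wide. The sum of bases in peaks within 500 bp of the start was 43.3% in WT and 61.7% in R339Q, and the width ratio of Rps23 includes this difference in how the peak was split. A gap between split peaks is not counted in this sum either. Over all members the sum was by median 56.7% of the 1 kb in WT, 63.8 in R339Q, 57.2 in R342C, 63.7 in S354F, 57.2 in K365T, 63.9 in R377C, 63.7 in R377H, 55.7 in Q418R, 66.3 in R448Q and 62.2 in H455R. R448Q was highest and Q418R lowest. Per member, the median difference from WT was 9.09 percentage points in R339Q, 0.90 in R342C, 10.0 in S354F, -0.20 in K365T, 9.79 in R377C, 6.04 in R377H, -1.25 in Q418R, 13.0 in R448Q and 2.75 in H455R. Over all genes it ran from -1.50 (Q418R) to 0.70 (R448Q).

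Rpl10a, the large subunit protein of the L1 stalk, whose promoter is printed above, had a weak start peak of 303 bp in WT, 467 in R339Q, 468 in R342C, 605 in S354F, 298 in K365T, 512 in R377C, 471 in R377H, 493 in Q418R, 628 in R448Q and 390 in H455R. Rps12 had a start peak of 326 bp in WT, 247 to 387 bp in Q418R, K365T, R342C and R377H, and 682 to 726 bp in the other 5 lists, with a percentile of 30.8 in WT, 59.8 in R339Q, 68.8 in R342C, 66.7 in S354F, 40.4 in K365T, 66.7 in R377C, 56.4 in R377H, 26.1 in Q418R, 61.4 in R448Q and 58.7 in H455R. Rps12 was lowest in Q418R and WT on the percentile scale. Q418R had a separate peak of 213 bp upstream of the Rps12 start (23787546 to 23787758), so the width of Rps12 can include such splitting. Rps15, a small subunit gene, had 316 bp in WT, 340 in R339Q, 600 in R342C, 581 in S354F, 423 in K365T, 502 in R377C, 592 in R377H, 349 in Q418R, 616 in R448Q and 578 in H455R. Its width was smallest in WT, and its percentile was 31.5 in Q418R and 69.9 in R339Q. Rpl12, at the base of the stalk, had 400 bp in WT, 588 in R339Q, 465 in R342C, 579 in S354F, 590 in K365T, 700 in R377C, 664 in R377H, 393 in Q418R, 702 in R448Q and 664 in H455R, and its peak in WT also overlaps the start of the neighbouring gene Lrsam1. The 5 members with the widest range of percentile over the lists were Rps23, Rps12, Rpl4, Rps15 and Rpl12. On the opposite side, Rpl4 and Rps10 were narrower than in WT in 7 mutants. Rpl4, which holds 5 snoRNA genes, had 783 bp in WT, 397 in R339Q, 250 in R342C, 408 in S354F, 388 in K365T, 1122 in R377C, 804 in R377H, 396 in Q418R, 231 in R448Q and 398 in H455R. Its start peak was broadest in R377C, and at most 408 bp in the 7 narrower mutants. WT had 2 peaks at this start, both of which overlapped a peak in all 9 mutants, so the width, which is that of the strongest peak, includes differences in how the peak was split and in which peak was strongest. The bases in peaks within 500 bp of the Rpl4 start were 64.0% in WT and 42.6% (R342C) to 62.1% (Q418R) in those 7.

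Accessible sites of WT cells in the members' windows were mostly retained in the mutants. The windows held 201 WT peaks, of which 147 (73.1%) overlapped a peak in all 9 mutants, where 48.7% of the 107313 WT peaks in windows of all protein-coding genes did. Among the 89 in the stronger 50% of the WT list 87 (97.8%) were found in all 9 mutants, against 80.9% over all protein-coding windows. In no mutant were 8 peaks (3.98%, against 5.83% over all windows), all at or below the 14.9th percentile of the WT list. Among them were peaks in the windows of Rps27a, Rps29, Rps28, Rpl34, Rps3, Rps13 and Rpl13.

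By mutant, the WT peaks of member windows that were missing numbered 44 in R339Q (21.9%, 95% interval 16.4 to 28.25), 30 in R342C (14.9%), 35 in S354F (17.4%), 26 in K365T (12.9%), 25 in R377C (12.4%), 31 in R377H (15.4%), 26 in Q418R (12.9%), 31 in R448Q (15.4%) and 25 in H455R (12.4%, 8.21 to 17.8). Over all protein-coding windows the share was 35.6% in R339Q, 26.4% in R342C, 24.1% in S354F, 28.7% in K365T, 20.8% in R377C, 26.5% in R377H, 31.9% in Q418R, 29.1% in R448Q and 19.5% in H455R. In each mutant the members' share was below it. So was the interval's upper bound, which covers counting error only and is no test of a mutant against WT. Weak peaks are missed more often, and 44.3% of the members' WT peaks were in the stronger 50% against 49.0% over all windows. At equal WT strength, 80.9 peaks would be missing in R339Q and 45.7 in H455R. Of the 137 WT peaks at no start of the promoter table, which can include peaks at the starts of the 20 members without an entry, 44 were missing in R339Q, against 68.2 at equal strength, and 25 in H455R, against 40.0. Members are shorter than other genes, 3175 against 17490 bp by median, and the part of gene length in this result was not tested. When each list was limited to the size of the shortest, 3 (Q418R) to 17 (R448Q) WT peaks of member windows were missing, and R339Q, with the most at full size, had 4. Fewer WT peaks enter at this size. The share over all protein-coding windows is not given for it, so these counts cannot be compared with other genes.

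**Figure D5:**
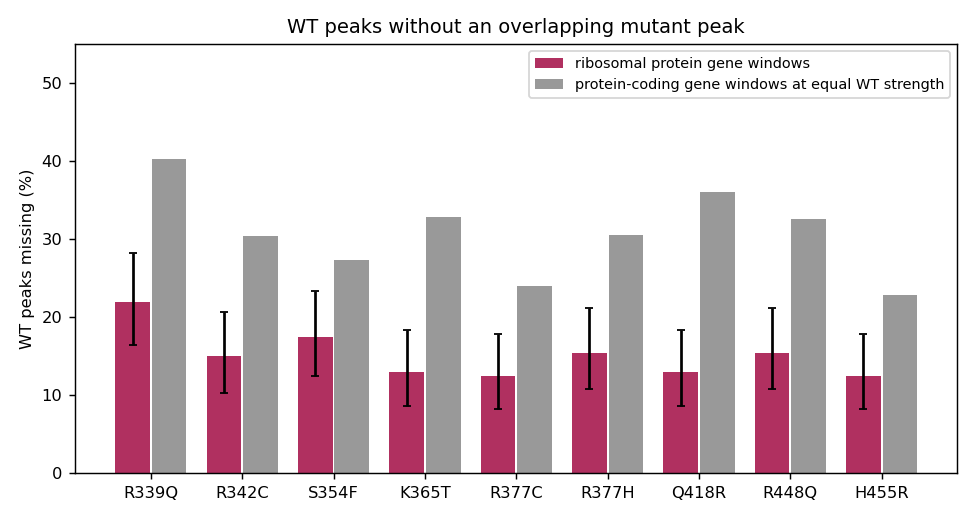
Share of the 201 WT peaks in ribosomal protein gene windows without an overlapping peak in each mutant list (%, with binomial 95% intervals), beside the share over all protein-coding windows at equal WT strength. The members' share is 12.4% to 21.9%, that at equal strength 22.8% to 40.2%.

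Of the 50 WT peaks at a member's own start, none was missing in 8 mutants and 1 in K365T. That peak was 1 of the 2 at Rps23. With starts of neighbouring genes included, member windows held 64 WT peaks at a start, with the same 1 missing, where 1.73% to 3.94% of the WT peaks at starts in all protein-coding windows were missing, depending on the mutant. The 2 stronger WT peaks missing from a mutant lay outside the genes. The first, at the 68.1st percentile of the WT list, was just past the end of Rplp0 (chromosome 5, 115563825 to 115564175) and was missing in R339Q. The other, at the 51.7th percentile, was near Rpl17 (chromosome 18, 75004154 to 75004788) and was missing in R448Q.

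Peaks of the mutants without a WT counterpart were few and weak. They numbered 5 in R339Q (2.91% of the member window peaks, 6.5% over all windows), 2 in R342C (1.10%, 9.24%), 6 in S354F (3.43%, 8.51%), 9 in K365T (4.55%, 8.12%), 5 in R377C (2.73%, 10.5%), 4 in R377H (2.15%, 10.9%), 6 in Q418R (3.16%, 6.88%), 13 in R448Q (6.77%, 12.8%) and 7 in H455R (3.61%, 12.3%). None of these 57 was in the stronger 50% of its list, where 3.21% (S354F) to 12.5% (R448Q) of such peaks over all windows were, and the highest stood at the 28.4th percentile, at the start of Rpl38 in R448Q. Of the 13 at a start 12 were at Rpl38 and Rpl19. When overlapping peaks of the 10 lists were merged, member windows held 218 regions, of which 145 (66.5%) were in all 10 lists, where 37.5% of the regions in all protein-coding windows were. No member region was in all 9 mutants and absent from WT, which held for 0.0789% of the regions in all protein-coding windows.

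Ribosomal protein genes have many processed pseudogenes, copies of the messenger RNA placed elsewhere, and reads from the copies and from the exons of the genes can be hard to assign. Of 266 annotated ribosomal protein pseudogenes 13 overlapped a WT peak (4.89%, 2.63 to 8.21), where 9.98% of other pseudogenes did, and 6 did so in all 10 lists (2.26%, where 4.92% of others did): Rpl13-ps1, Rpl19-ps9, Rpl36-ps1, Rpl36-ps8, Rps12-ps19 and Rps19-ps5. The sources used here do not state how reads mapping to several places were treated. The WT start peak overlapped the start of another protein-coding gene for 8 of 48 members, where 13.7% of WT start peaks did, for example Lrsam1 at Rpl12, Rab13 at Rps27, Sphk2 at Rpl18 and Vps52 at Rps18, so that such a peak cannot be told apart between the neighbours.

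Close relatives left out by the symbol, and the X-linked genes left out by the limit to chromosomes 1 to 19, had peaks as well. Rpsa, Rps3a1 and Fau, which also encode ribosomal proteins or a fusion with a ubiquitin-like protein, the paralogs Rpl22l1, Rps27l, Rpl7l1, Rpl3l, Rpl10l and Rpl39l, and the X-linked Rpl10, Rps4x, Rpl36a and Rpl39 each had a window peak in all 10 lists. Rpsa had its strongest window peak at 63.8 to 83.6 in percentile and a WT start peak of 519 bp, and Rps4x at 59.7 to 79.7 with 359 bp. Rpl22l1, a paralog of Rpl22, was higher, at 92.2 to 98.3 with 681 bp. Rpl3l, a muscle form of Rpl3, had no start peak in any list.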

How the data were processed

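Omni-ATAC was run on 20 samples of 10 genotypes. MACS2, Bowtie2, deepTools and Trim Galore and the build mm10 are named, without versions, in the submitters' processing notes. The authors joined both replicates in the peak list deposited for each genotype, as its peak names carry 2 library codes. The values the authors deposited per peak look, by their range and step size, like MACS2 fold enrichment, a ratio. They served only to rank peaks within a list. The step of these values gave the background coverage, with 28.9% to 33.8% of values on the step and at most 0.0178% on an offset grid. The sources used here do not state adapter shifting, duplicate handling or the calling threshold.

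With python 3.11.15, numpy 2.4.6, pandas 2.3.3 and scipy 1.17.1, peaks were joined by at least 1 bp to the RefSeq gene table and promoter table of GRCm38.p6, whose chromosomes are those of mm10. Coordinates are 1-based. The start peak was the strongest peak overlapping 250 bp before to 50 bp after a start. Comparisons at equal WT strength or width used 20 bins over protein-coding genes. Intervals are exact (Clopper-Pearson) and cover 95%. The code was tested on simulated peaks. Named genes are those with a missing start peak, the 5 highest, lowest, widest, narrowest and most variable, stalk genes, those losing a stronger WT peak, and those with most or fewest WT peaks; Rps24, Rps10, Rps26, Rpl11 and Rpl26 were added after their values were seen. The members and gene lists were chosen with earlier results of these data known. A few genes are counted but not reported here by name. Alternatives were other windows, list sizes, overlap and strength limits.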

Additional observations from a re-analysis of the deposited data

How the results depend on the processing

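Leaving out a replicate was not possible. No paired analysis was possible because both replicates of a genotype are joined in 1 list and the result comes from no test. The number of members with a peak kept within 1.5 times of its value under every alternative run: 68 to 70 in the gene alone, 71 with 10 kb flanks, 59 to 67 in the stronger 50% of each list and 68 to 71 at equal list size. The number with a start peak was 48 to 50 within 1 kb of the start. Restricting members to the 47 whose start lies within 250 bp of the gene model's end, an alternative chosen after seeing the data, left 46 per list, median percentiles of 66.0 to 79.0, median widths of 557.5 to 717 bp and 5 to 22 wider members.

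Missing WT peaks depended on which peaks were compared. At equal list size they numbered 4 in R339Q, 6 in R342C, 9 in S354F, 9 in K365T, 15 in R377C, 11 in R377H, 3 in Q418R, 17 in R448Q and 13 in H455R. No share over all protein-coding windows is given at this size. Of the stronger 50% of WT peaks, the number missing was 1 in R339Q, 0 in R342C, 0 in S354F, 0 in K365T, 0 in R377C, 0 in R377H, 0 in Q418R, 1 in R448Q and 0 in H455R. Over WT peaks of any strength, the count was 28 to 58 when at least 50% of the WT peak had to be covered. Among the stronger 50% of each mutant list no peak lacked a WT overlap: the count was 0 in all 9 mutants. Over mutant peaks of any strength, the count was 2 to 17 when at least 50% of the mutant peak had to be covered.

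Limiting lists to an equal size moved the median start percentile to 59.4 in WT, 70.8 in R377C and 72.2 in H455R, and the other 7 stayed within their interval. Ranked among the common starts alone, it was 18.6 in WT, 32.2 in R339Q, 25.3 in R342C, 24.6 in S354F, 23.7 in K365T, 25.9 in R377C, 29.0 in R377H, 21.1 in Q418R, 24.1 in R448Q and 27.4 in H455R. Taking the strongest window peak instead moved the median width to 699 in R339Q, 662 in R342C, 641 in K365T and 652 in Q418R. With 1.5 times as the limit for a wider start peak, chosen after seeing the data, the counts were 9 in R339Q, 5 in R342C, 9 in S354F, 2 in K365T, 10 in R377C, 8 in R377H, 2 in Q418R, 13 in R448Q and 9 in H455R. The causes of these changes were not tested, other than that fewer peaks enter at equal size or in the stronger 50%. With 1 list per genotype, neither depth nor line can be told apart from genotype.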
